A study of Homo sapiens with 6 samples.

Results

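BTK, a cytoplasmic tyrosine kinase of the Tec family, was examined together with 9 of its signalling partners, the kinases TEC, SYK and LYN, the phospholipase PLCG2, the adaptors BLNK, LCP2 and GRAP2, the exchange factor VAV1 and the phosphatase INPP5D. The genes were taken by symbol from the deposited expression table, in which each of the 10 stood on 1 row of 58364. The question was whether the higher BTK level of MSX2-deleted cells came with other genes of its pathway. The cells were H1, an established line of human embryonic stem cells (hESCs), differentiated towards blood for 8 days, and the libraries are 2 of unedited cells (WT, replicates 1 and 2) and 4 of MSX2-/- cells. The MSX2-/- libraries are replicates 1 and 2 of each of 2 clones, 1# and 2#, which were grown from single cells after lentiviral delivery of Cas9 and a guide against exon 2 of MSX2, a homeobox transcription factor, and puromycin selection. Each clone is thus a line of its own, and the sources used here describe no cloning of the WT cells. RNA came from cells carrying CD31 on their surface, which the labels state for the MSX2-/- libraries only and the study's text for WT too. The growth protocol in the labels names activin A and BMP4 followed by VEGF and bFGF, and it also speaks of HAND1 overexpression, which the study's text does not mention.

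In B cells, mast cells, megakaryocytes and other blood cells, a Src family kinase such as LYN phosphorylates receptor chains, SYK docks on them, and SYK phosphorylates the adaptors BLNK or LCP2 (also called SLP-76). The adaptors bring BTK and PLCG2 together, BTK activates PLCG2, and PLCG2 cuts a membrane lipid into messengers that release calcium and activate protein kinase C. BTK reaches the membrane by binding the lipid that PI3K makes and INPP5D (SHIP1) removes, and inherited loss of BTK in people leads to a lack of B cells.

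Stretches before annotated starts are shown for BTK and for GRAP2 and VAV1, 2 of the partners whose level was also higher in every MSX2-/- library than in the WT library of its replicate. RefSeq windows of 300 bases around the start (GRCh38.p14, 250 before and 50 after) were found for 9 of the 10 genes, 13 windows in all, and not for LYN. Only bases before the first annotated exon are printed, 5′ to 3′ along the gene. They are chrX:101386225-101386441 on the minus strand for the downstream one of the pair of BTK starts, chr22:39946567-39946816 on the plus strand for the downstream GRAP2 start, and chr19:6772458-6772707 on the plus strand for VAV1. Capitals mark matches on either strand to the GATA letters AGATAA, their variant AGATAG, their variant TGATAA and their variant TGATAG, or to the ETS letters GAGGAAGT.
BTK: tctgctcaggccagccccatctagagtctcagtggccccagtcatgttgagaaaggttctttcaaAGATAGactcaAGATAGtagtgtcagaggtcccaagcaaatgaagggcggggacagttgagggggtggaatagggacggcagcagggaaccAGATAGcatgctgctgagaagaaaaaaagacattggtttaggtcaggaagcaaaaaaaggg
GRAP2: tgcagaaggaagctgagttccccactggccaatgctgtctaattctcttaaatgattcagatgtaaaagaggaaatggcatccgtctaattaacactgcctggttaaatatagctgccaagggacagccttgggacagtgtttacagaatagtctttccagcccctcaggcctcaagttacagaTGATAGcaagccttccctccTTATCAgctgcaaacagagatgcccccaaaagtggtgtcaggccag
VAV1: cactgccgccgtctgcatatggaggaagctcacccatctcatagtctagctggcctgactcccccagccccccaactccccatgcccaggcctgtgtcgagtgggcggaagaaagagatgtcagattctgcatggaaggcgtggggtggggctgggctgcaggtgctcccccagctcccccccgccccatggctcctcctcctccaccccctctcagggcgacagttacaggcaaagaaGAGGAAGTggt

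The BTK stretch held 3 GATA matches and the GRAP2 stretch 2, and VAV1 held 1 ETS match. The window of the upstream GRAP2 start, not printed, held 0 matches to the GATA, ETS, RUNX and homeobox letters given below. GATA letters were in 25% of 35116 RefSeq windows of the same length and in 4 of the 13 windows of these genes, which belong to BTK, GRAP2 and PLCG2. ETS letters were in 2.59% of all windows and in 5 of the 13, those of BTK (upstream start), VAV1, LCP2, INPP5D and SYK. RUNX letters (TGTGGT or the variant TGCGGT) were in 19.6% of all windows and in 1 of the 13, a SYK window, and the homeobox letters TAATTG were in 7.38% and in 1 of the 13, another SYK window. TEC was likewise higher in every MSX2-/- library than in the WT library of its replicate. Its window, not printed, held 0 matches to the GATA, ETS, RUNX and homeobox letters. These motifs were chosen after the windows had been read, and no motif contains another. A match is a description of the sequence alone.

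Levels are in FPKM, fragments per kilobase of transcript relative to the mapped fragments, and they sum to between 555286 and 617120 per library. The number of reads behind a value is unknown. Differences were tested with limma on log2(FPKM + 1) for the 15895 rows with a mean of at least 0.5 FPKM, and a log2 fold change on that scale understates the change of a low gene. The median log2 fold change over all rows tested was 0.01. PECAM1, which encodes CD31, lay between 186 and 258 FPKM in all 6 libraries, and PTPRC, the pan-leukocyte gene for CD45, at 0.118 FPKM or less. MSX2 mRNA was 3.64 and 1.44 FPKM in WT and 18.0, 5.62, 31.8 and 6.69 FPKM in MSX2-/- (clone 1# replicates 1 and 2, then clone 2# replicates 1 and 2, the order used throughout), so its level does not check the genotype and the directions below rest on the labels. Replicates are not described as separate cultures, and the p-values measure the spread between these libraries only.

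BTK was the only gene of the 10 called different between MSX2-/- and WT in the comparison of 4 libraries with 2. The BTK gene lies at chrX:101349447-101390796 on the minus strand (GRCh38, GENCODE release 29), and no annotated gene overlaps it. BTK stood at 17.9 and 18.7 FPKM in WT and at 63.8, 50.0, 55.8 and 59.7 FPKM in MSX2-/-. The lowest MSX2-/- library was thus well above the higher WT library, and replicates of WT differed by less than 1 FPKM. The mean level rose from 18.3 ± 0.599 FPKM (SD, n = 2) to 57.3 ± 5.86 FPKM (SD, n = 4), which is 3.13-fold. The log2 fold change was 1.59 (SE 0.13, 95% interval 1.27 to 1.91, limma adjusted p = 0.0100), the rank of 117 from the highest among 15895 rows. With 1 gene of 8 tested called higher and 0 lower, the background of all rows was 0.963% higher and 0.321% lower. The rise of BTK had been shown by the study on these libraries, so it is no independent evidence here. In bulk libraries, more BTK-expressing cells and more BTK RNA per cell cannot be told apart.

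The BTK difference had like sizes in the clones. Clone 1# was 1.57 and clone 2# 1.61 above WT on the log2 scale, and clone 2# differed from clone 1# by 0.03 (95% interval -0.41 to 0.48). In a fit of 3 groups neither clone's BTK difference was called (limma adjusted p = 0.119 and 0.118), in a comparison where 0.00629% of all rows were called for clone 1# and 0.00629% for clone 2#. With the replicate number as a block, BTK was called in both clones (limma adjusted p = 0.0122 and 0.0106), beside 3.46% and 3.71% of all rows, and no other gene of the 10 was. Between the clones, limma called 0% of rows (225 at an unadjusted p under 0.05, none of them among the 10 genes). The adjusted p of BTK lay above the threshold with WT replicate 1 left out (0.0670), where the difference was 1.56.

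**Figure D1:**
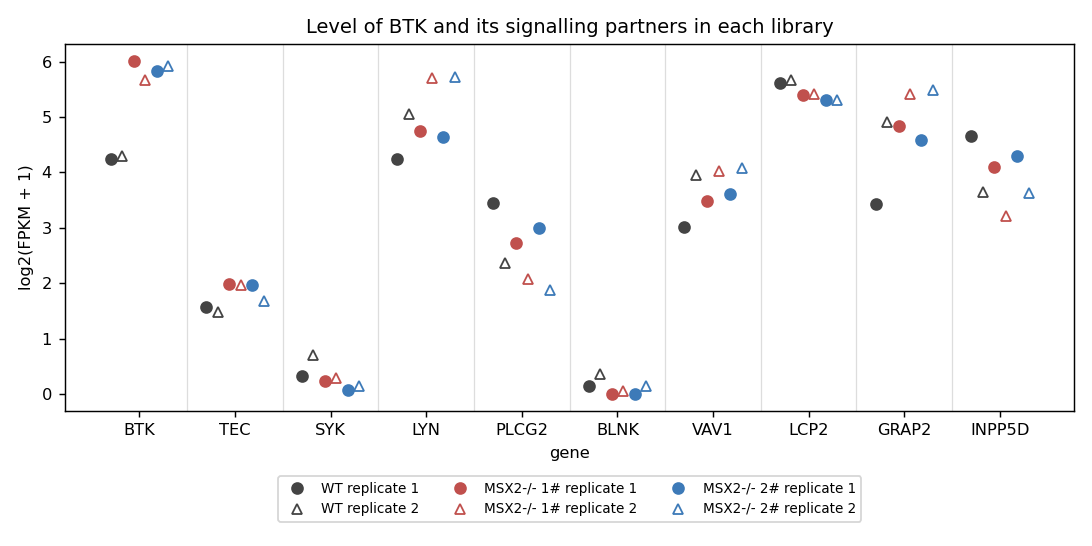
The 10 genes are on the horizontal axis and log2(FPKM + 1) on the vertical axis, with 1 point per library, coloured by WT or clone and shaped by replicate number. BTK has a gap between the WT libraries (17.9 and 18.7 FPKM) and the MSX2-/- libraries (50.0 to 63.8 FPKM), while LYN, GRAP2, VAV1, PLCG2 and INPP5D are spread by replicate number.

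TEC, the Tec family kinase that gives the family its name, was at a low level throughout. TEC (chr4:48135783-48269864, minus strand) read 1.98 and 1.79 FPKM in WT and 2.99, 2.94, 2.89 and 2.22 FPKM in MSX2-/-. All MSX2-/- libraries lay above both WT libraries. The log2 difference was 0.38 (SE 0.17, 95% interval -0.04 to 0.79) and was not called (limma adjusted p = 0.485, and 0.151 with the replicate block).

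SYK, the kinase that acts before BTK at most immune receptors, was almost absent. SYK (chr9:90801787-90898549, plus strand) had values of 0.254 and 0.633 FPKM in WT and of 0.185, 0.216, 0.0566 and 0.113 FPKM in MSX2-/-. Every MSX2-/- library was below both WT libraries, at levels under the minimum for the test. The other kinase of its family, ZAP70, the kinase known from T and NK cells, was measured at higher levels than SYK in every library, with 3.51 and 6.94 FPKM in WT and 7.88, 18.5, 7.94 and 19.6 FPKM in MSX2-/-. Within each replicate number ZAP70 was higher in both clones than in WT (log2 fold change 1.16, limma adjusted p = 0.384, and 0.00368 with the replicate block).

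LYN, the Src family kinase that phosphorylates receptor chains at the start of the pathway, was called between replicate numbers. Between genotypes it was called only in the fit with the replicate block. LYN (chr8:55879813-56014168, plus strand) read 18.0 FPKM in WT replicate 1 and 32.4 FPKM in WT replicate 2. In MSX2-/- it read 25.8 and 23.8 FPKM in the replicate 1 libraries and 50.9 and 51.5 FPKM in the replicate 2 libraries. The groups overlapped, but each MSX2-/- library was above the WT library of its own replicate number. The log2 difference of 0.54 was not called without the block (limma adjusted p = 0.727) and was called with it (0.0141, 95% interval 0.34 to 0.74). In the fit without the block it was 0.13 with WT replicate 1 left out and 0.95 with WT replicate 2 left out.

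PLCG2, the phospholipase that BTK activates, was not called in either direction. PLCG2 (chr16:81739097-81962693, plus strand) read 9.95 and 4.13 FPKM in WT and 5.64, 3.23, 6.95 and 2.66 FPKM in MSX2-/-. Each MSX2-/- library was below the WT library of its own replicate number, and the groups overlapped. The log2 difference was -0.49 (95% interval -1.51 to 0.53, limma adjusted p = 0.780). With the replicate block it was -0.49 with a 95% interval of -0.82 to -0.15 and an adjusted p of 0.0801, also not called.

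The B cell adaptor BLNK was close to 0 in every library and the adaptor LCP2 was abundant. BLNK (chr10:96191702-96271587, minus strand) reached 0.102 and 0.28 FPKM in WT and no more than 0.114 FPKM in MSX2-/-, under the minimum for the test. LCP2 (chr5:170246237-170298227, minus strand), which does the corresponding work in T cells, platelets and mast cells, read 48.1 and 49.8 FPKM in WT and 41.2, 41.6, 38.8 and 38.5 FPKM in MSX2-/-. All 4 MSX2-/- libraries lay below both WT libraries, with replicates close together. The log2 difference was -0.28 (SE 0.10, 95% interval -0.53 to -0.03) and missed the threshold after adjustment (unadjusted p = 0.0315 in limma, adjusted p = 0.346, and 0.0608 with the block).

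GRAP2 (GADS), the adaptor that ties LCP2 to the membrane scaffold LAT, had the largest difference after BTK among the 8 genes tested. GRAP2 (chr22:39901082-39973721, plus strand) read 9.78 FPKM in WT replicate 1 and 29.2 FPKM in WT replicate 2. In MSX2-/- it read 27.8 and 23.1 FPKM in replicate 1 and 41.9 and 43.7 FPKM in replicate 2. The groups overlapped because WT replicate 2 was above both replicate 1 libraries of MSX2-/-, while each MSX2-/- library exceeded its own WT library. The log2 difference of 0.91 was not called without the block (limma adjusted p = 0.519) and was called with it (0.0293, 95% interval 0.48 to 1.35). Without WT replicate 1 it was 0.17, and without WT replicate 2 it was 1.66. The genotype difference was smaller in replicate 2 than in replicate 1 by 0.75 on the log2 scale, which was not called (limma unadjusted p = 0.0132, adjusted p = 0.367). No gene of the 10 was called in that test, where 0.0189% of all rows were. VAV1 and GRAP2 were the 2 with an unadjusted limma p under 0.05, beside 1817 of all 15895 rows tested.

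VAV1, the blood-specific exchange factor that activates RAC, was not called different. VAV1 (chr19:6772714-6857366, plus strand) read 7.06 and 14.6 FPKM in WT and 10.2, 15.4, 11.2 and 15.9 FPKM in MSX2-/-. In replicate 2 the MSX2-/- libraries were 0.07 and 0.12 above WT on the log2 scale, and in replicate 1 they were 0.48 and 0.60 above. The log2 difference over all libraries was 0.32 (95% interval -0.42 to 1.06, limma adjusted p = 0.817, and 0.173 with the block).

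INPP5D (SHIP1), the lipid phosphatase that opposes BTK at the membrane, was not called different. INPP5D (chr2:233059967-233207903, plus strand) read 24.4 and 11.5 FPKM in WT and 16.2, 8.28, 18.7 and 11.4 FPKM in MSX2-/-. Each MSX2-/- library was below its own WT library, by as little as 0.01 on the log2 scale in clone 2# replicate 2. The log2 difference was -0.34 (95% interval -1.28 to 0.59, limma adjusted p = 0.863, and 0.199 with the block).

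**Figure D2:**
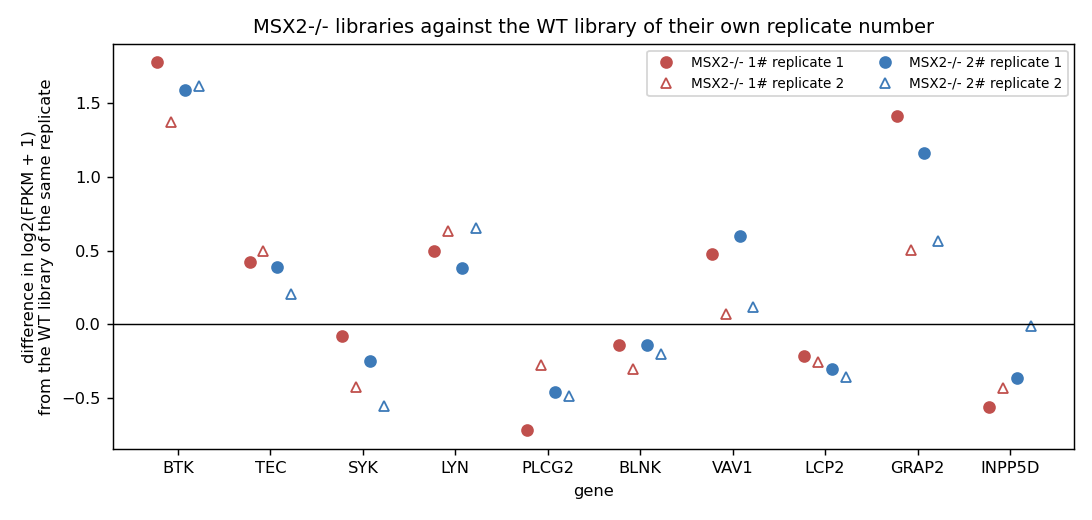
The 10 genes are on the horizontal axis, and the vertical axis gives each MSX2-/- library's log2(FPKM + 1) minus that of the WT library of its replicate number, with clones by colour and replicates by shape. The points of BTK lie between 1.37 and 1.78, those of TEC, LYN, VAV1 and GRAP2 above 0, and those of SYK, PLCG2, BLNK, LCP2 and INPP5D below 0.

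Set against the WT library that shares their replicate number, the 10 genes went both ways. BTK, TEC, LYN, VAV1 and GRAP2 were higher in 4 of 4 MSX2-/- libraries, and SYK, PLCG2, BLNK, LCP2 and INPP5D were lower in 4 of 4. Of the 8 genes that passed the minimum level these were 5 higher (62.5%) and 3 lower (37.5%), since SYK and BLNK did not pass it. The 5 include BTK itself, and the partners among them were TEC, LYN, VAV1 and GRAP2. Among rows tested, 23.6% were higher in all 4 such comparisons and 21.4% lower in all 4, and the pair of MSX2-/- libraries of a replicate number share their WT library. Without regard to replicate number, BTK and TEC had all 4 MSX2-/- libraries above both WT libraries and LCP2 and SYK had them below both. The share of tested rows above both was 12.1% and below both 9.19%. With the replicate block, 3 of the 8 genes tested were called higher (BTK, LYN and GRAP2) and 0 lower, beside 6.11% and 3.74% of all rows. BTK, whose rise was known beforehand, is among the 3, so the partners called were LYN and GRAP2. Of the 8, 7 (BTK among them) had an unadjusted limma p under 0.05 in the fit with the block, as had 4247 of all 15895 rows tested. An exact two-sided permutation test with 4 libraries against 2 cannot go below p = 0.0667, the value that BTK, TEC, SYK and LCP2 reached.

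More of these genes were called between the replicate numbers than between the genotypes, also with the replicate block in the genotype fit (3 higher and 0 lower). Replicate 2 was higher than replicate 1 for LYN (log2 difference 0.95, limma adjusted p = 0.00470), VAV1 (0.65, adjusted p = 0.0205) and GRAP2 (0.98, adjusted p = 0.0161). It was lower for PLCG2 (-0.96, limma adjusted p = 0.0111) and INPP5D (-0.86, adjusted p = 0.00743). BTK, TEC and LCP2 were not called (log2 differences -0.06, -0.13 and 0.02). Among all rows tested 12.5% were higher and 15.5% lower in replicate 2, against 6.11% and 3.74% between genotypes with the replicate block. The whole table thus went the same way as these genes. The label descriptions give each replicate number a set letter of its own without saying what the sets are.

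**Figure D3:**
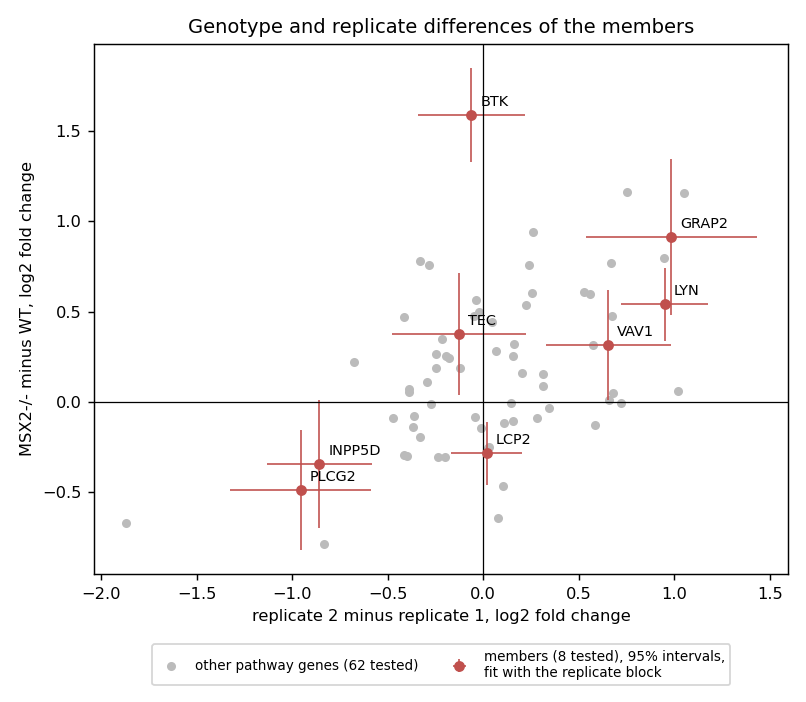
Each point is a gene, with the difference of replicate 2 from replicate 1 on the horizontal axis and of MSX2-/- from WT on the vertical axis, both as log2 fold changes, and bars give 95% intervals for the 8 genes tested. BTK lies at 1.59 for genotype and -0.06 for replicate, and LYN and GRAP2 lie near 1 for replicate.

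By mean level over the 6 libraries, which FPKM allows to be compared between genes, the order was BTK (44.3 FPKM), LCP2 (43.0), LYN (33.7), GRAP2 (29.2), INPP5D (15.1), VAV1 (12.4), PLCG2 (5.43), TEC (2.47), SYK (0.243) and BLNK (0.0884). The order differed between genotypes. In WT the highest was LCP2 at 48.9 ± 1.23 FPKM (SD, n = 2), and LYN (25.2 ± 10.2), GRAP2 (19.5 ± 13.7), BTK (18.3 ± 0.599) and INPP5D (17.9 ± 9.08) did not differ beyond their spread. In MSX2-/- the highest was BTK at 57.3 ± 5.86 FPKM (SD, n = 4), above LCP2 at 40.0 ± 1.58, while LYN (38.0 ± 15.3) and GRAP2 (34.1 ± 10.2) overlapped LCP2. The LYN values of the replicate 2 libraries (50.9 and 51.5 FPKM) also reached above the lowest BTK value (50.0 FPKM, clone 1# replicate 2).

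Ratios of a gene to its paralog in the same library give a difference in which library scaling largely cancels, and 12 pairs were compared as log2 ratios of FPKM + 1. The BTK to TEC ratio was 1.21 higher in MSX2-/- than in WT, GRAP2 to GRAP 0.90 higher, VAV1 to VAV3 0.44 higher and TEC to BMX 0.42 higher. In each of these pairs all 4 MSX2-/- libraries lay above both WT libraries (exact permutation p = 0.0667, the smallest possible, and 0.2 after Benjamini-Hochberg adjustment over the 12 pairs). The BTK to TEC pair restates the rise of BTK (1.59, beside 0.38 for TEC). That rise was known beforehand, so the separation of this pair is no added evidence. BMX was at 0.369 FPKM or less in every library, so its pair follows TEC alone. GRAP, the close relative of GRAP2, averaged 13.2 FPKM in WT and 13.3 FPKM in MSX2-/-. The SYK to ZAP70 ratio was lower by 1.49, with all 4 MSX2-/- libraries below both WT libraries (log2 ratio -2.06 in WT and -3.55 in MSX2-/-, exact permutation p = 0.133). SYK was under the minimum for the test, ZAP70 alone differed by 1.16, and with a pseudocount of 0.1 the difference of the ratio was -2.42. The other 7 pairs had overlapping libraries. Their log2 ratios differed by 0.75 for GRAP2 to GRB2, by 0.74 for LYN to FYN, by 0.63 for LYN to YES1 and by -0.40 for INPP5D to INPPL1. The differences were -0.23 for PLCG2 to PLCG1, -0.15 for VAV1 to VAV2 and -0.09 for LCP2 to BLNK, which became 0.79 with a pseudocount of 0.1, BLNK being near 0. Against the WT library of their own replicate number, the ratios of GRAP2 to GRB2, LYN to FYN and LYN to YES1 were higher in 4 of 4 MSX2-/- libraries and those of PLCG2 to PLCG1 and INPP5D to INPPL1 lower in 4 of 4. Leaving out a WT library moved several ratios by over 1.5 times. Without WT replicate 1 and without WT replicate 2, respectively, the difference was 0.47 and 1.33 for GRAP2 to GRAP, 0.19 and 0.70 for VAV1 to VAV3, 0.11 and 1.39 for GRAP2 to GRB2, 0.20 and 1.28 for LYN to FYN, 0.33 and 0.92 for LYN to YES1, -0.14 and -0.65 for INPP5D to INPPL1 and -0.79 and 0.49 for VAV1 to VAV2, which changed sign. FYN (229 to 334 FPKM), PLCG1 (103 to 135 FPKM) and INPPL1 (70.8 to 104 FPKM) were each far above their relative LYN, PLCG2 or INPP5D in every library.

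Of 86 other genes of the pathway, 62 passed the minimum level and 26 were under 1 FPKM in all 6 libraries. In the comparison without the block 1 of the 62 was called higher (1.61%) and 0 lower, beside the background of 0.963% and 0.321%, and the median log2 fold change was 0.13 against 0.01 over all rows. The gene was NFATC1, a calcium-activated transcription factor at the end of the pathway. NFATC1 read 29.7 and 35.0 FPKM in WT and 56.4, 67.4, 57.5 and 70.9 FPKM in MSX2-/-, so all 4 MSX2-/- libraries exceeded both WT libraries. Its log2 fold change was 0.94 (limma adjusted p = 0.0410, and 0.00154 with the block). The call was lost with any library left out, with rescaled libraries and without the mean-variance trend.

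With the replicate block 13 of the 62 were called higher (21%) and 2 lower (3.23%), beside 6.11% and 3.74% of all rows. The highest log2 fold changes besides those of ZAP70 and NFATC1 were those of PRKCB (1.16, limma adjusted p = 0.00382), the protein kinase C isoform that BTK signalling activates in B cells, FCER1G (0.80, adjusted p = 0.0499), the signalling chain of Fc receptors, PRKCD (0.78, adjusted p = 0.00573), another protein kinase C, and PTPN6 (0.77, adjusted p = 0.0457), the phosphatase SHP-1. PRKCB read 3.95 and 6.27 FPKM in WT and 8.76, 16.0, 9.21 and 18.2 FPKM in MSX2-/-, with every MSX2-/- library above both WT libraries. PTPN6 read 11.8 and 28.3 FPKM in WT and 27.3, 37.9, 28.0 and 35.9 FPKM in MSX2-/-, with overlap, as its WT replicates lay far apart. The genes called lower were CSF2RB, the common beta chain of cytokine receptors (-0.79, limma adjusted p = 0.0215), and RASGRP3, an exchange factor for Ras that diacylglycerol recruits (-0.47, adjusted p = 0.0123). RASGRP3 read 103 and 106 FPKM in WT and 75.2, 80.9, 68.8 and 76.7 FPKM in MSX2-/-, below WT in 4 of 4 libraries. The smallest rises called were those of the kinase SRC (0.32), the exchange factor VAV2 (0.47), the PI3K catalytic subunit PIK3CB (0.56) and the ubiquitin ligase CBLB (0.60). RAC2, DOK3 and TYROBP, named here after their values were seen, complete the 13.

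By role, the block called 2 of 5 kinases and regulators tested, 0 of 8 adaptors, 3 of 11 phosphatases and other inhibitors, 2 of 6 phospholipase C, VAV and RAC partners, 1 of 7 PI3K subunits, 3 of 13 genes downstream of PLCG2 and 2 of 12 receptors and receptor chains as higher. The 2 genes called lower belong to the last pair of groups. Against the WT library of their own replicate number, 25 of the 62 (40.3%) were higher in 4 of 4 MSX2-/- libraries and 12 (19.4%) were lower in 4 of 4, beside 23.6% and 21.4% of all rows. The lists were drawn up with results of these data known.

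**Figure D4:**
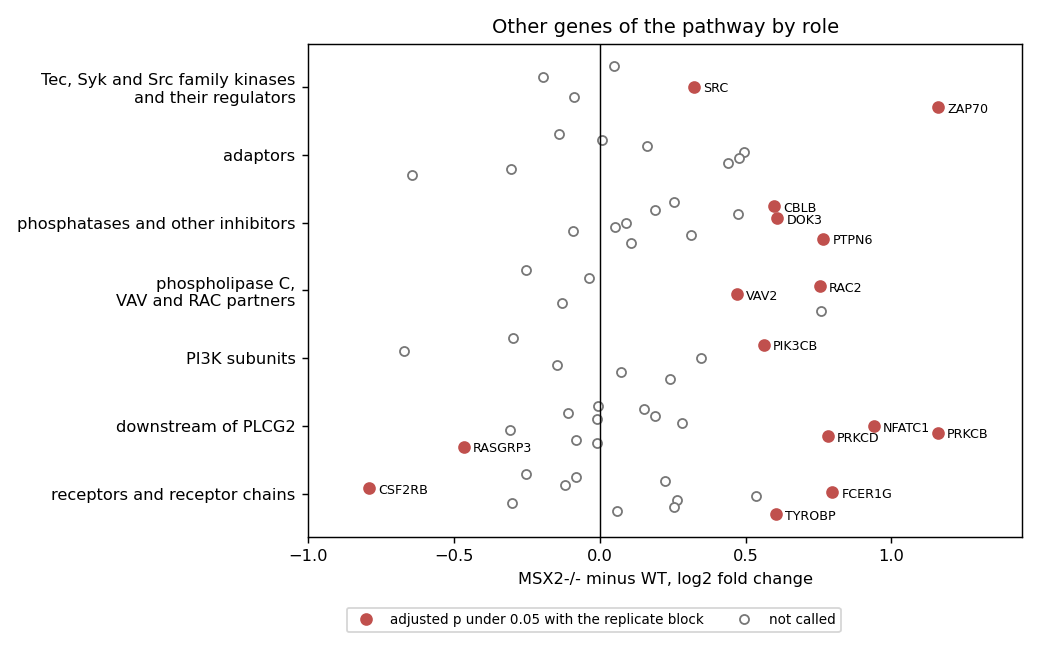
The horizontal axis gives the log2 fold change of MSX2-/- from WT for the 62 tested genes of the pathway other than the 10, grouped by role on the vertical axis, with filled points for those called with the replicate block. The 13 higher genes reach from 0.32 for SRC to 1.16 for PRKCB, and CSF2RB and RASGRP3 are the 2 lower ones.

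The genes whose log2(FPKM + 1) followed BTK most closely over the 6 libraries, among those with a mean of at least 1 FPKM, were HIST1H2AC (Pearson r 0.998), PLXNA1 (0.998), FLNC (0.998), MYLK3 (0.997) and ANTXR1 (0.996). They encode a histone, a semaphorin receptor, an actin crosslinker, a myosin light chain kinase and an anthrax toxin receptor, and none is a gene of the pathway lists. The measure is a description over 6 libraries that share the split of genotypes. In WT, HIST1H2AC read 0.796 and 0.779 FPKM and MYLK3 0.644 and 0.688 FPKM. Both thus reached the mean of 1 FPKM only through the MSX2-/- libraries. FLNC, for example, read 5.22 and 5.95 FPKM in WT and 20.8, 17.9, 18.4 and 20.7 FPKM in MSX2-/-.

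Markers of blood lineages and of other cells that a CD31 sort can hold also differed between the groups. In the comparison without the block, where 0.963% of all rows were called higher and 0.321% lower, 4 of the 9 erythroid genes tested (11 in the list) were called higher, and the same number with the block. They included GYPB, a surface glycoprotein gene (log2 fold change 1.60), ALAS2 of heme synthesis (2.64) and the transcription factor KLF1 (1.85). The summed level of the erythroid list was 124 to 156 FPKM in WT and 258 to 616 FPKM in MSX2-/-, and HBG2, its most abundant gene, read 37.3 to 51.7 FPKM in WT and 39.0 to 197 FPKM in MSX2-/-. GATA1, a factor of erythroid, megakaryocyte and mast cells placed in the mast cell and basophil list, was called higher as 1 of the 2 tested genes of that list's 8, with and without the block (1.15, limma adjusted p = 0.0220), from 7.68 and 8.90 FPKM in WT to between 17.4 and 20.8 FPKM in MSX2-/-. The mast cell enzyme gene HDC read 1.44 to 4.0 FPKM in WT and 0.787 to 4.57 FPKM in MSX2-/-. Of 12 endothelial genes, all tested, 8 were called lower with the replicate block and 3 without it. The 3 were CDH5 (-0.65), TIE1 (-0.58) and CLDN5 (-2.28), and the summed level was 3285 to 3947 FPKM in WT and 2105 to 3280 FPKM in MSX2-/-, led by EGFL7. Of the 9 mesenchymal genes tested (10 in the list) COL1A1, the most abundant, was called higher (2.30), and 3 were with the block, with sums of 279 to 313 FPKM in WT and 422 to 503 FPKM in MSX2-/-.

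No gene of the other 6 lists was called without the block. With it, 2 of 11 pan-hematopoietic genes tested were called higher and 1 lower, and 2 of 10 megakaryocyte and platelet genes higher. Of 7 myeloid genes tested 1 was called higher and 1 lower, and of 6 pluripotent genes 1 higher. Beside these, 6.11% of all rows were higher and 3.74% lower. Only 4 B cell genes and 2 T and NK cell genes were tested, and none was called. The 2 T and NK cell genes had all 4 MSX2-/- libraries above both WT libraries, as had 12.1% of all rows. For the B cell genes, 1 had them below both, as had 9.19% of all rows. The pan-hematopoietic sum was 328 to 430 FPKM in WT and 434 to 545 FPKM in MSX2-/- (15 genes), led by ARHGDIB, and SPN, the gene for CD43, read 6.19 and 11.3 FPKM in WT and 14.4 to 17.4 FPKM in MSX2-/-. The megakaryocyte and platelet sum (12 genes) was 113 to 189 FPKM in WT and 167 to 211 FPKM in MSX2-/-, led by NRGN, with PF4 between 1.30 and 3.41 FPKM in all libraries. The myeloid sum (12 genes) was 38.9 to 53.5 FPKM in WT and 40.4 to 53.5 FPKM in MSX2-/-, led by SPI1, the gene for PU.1, at 13.6 and 23.6 FPKM in WT and 21.1 to 31.1 FPKM in MSX2-/-, while ELANE was at 0 throughout. The B cell sum (10 genes) was 12.1 to 19.7 FPKM in WT and 13.1 to 24.5 FPKM in MSX2-/-, nearly all of it CD79B, with MS4A1 at 0 in every library. The T and NK cell sum (10 genes) was 2.10 to 3.21 FPKM in WT and 5.07 to 7.42 FPKM in MSX2-/-, led by CD7, with CD3E at 0 in 5 of 6 libraries. The pluripotent sum (9 genes) was 94.6 to 112 FPKM in WT and 114 to 135 FPKM in MSX2-/-, led by LIN28A.

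Relative to 8 of these 10 sums, BTK was higher in all 4 MSX2-/- libraries than in both WT libraries. The rise of BTK was known beforehand, so its ratio to a sum that differed less restates that rise and is no separate evidence. How many other rows would separate in this way was not counted. Per FPKM of the pan-hematopoietic sum, BTK was 0.0436 to 0.0546 in WT and 0.0952 to 0.140 in MSX2-/-, without overlap. Per FPKM of the erythroid sum it was 0.114 to 0.151 in WT and 0.0906 to 0.231 in MSX2-/-, with overlap. Per FPKM of the T and NK cell sum it was 5.84 to 8.53 in WT and 7.52 to 9.86 in MSX2-/-, also with overlap. The part of the marker lists in the difference of BTK was not tested.

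**Figure D5:**
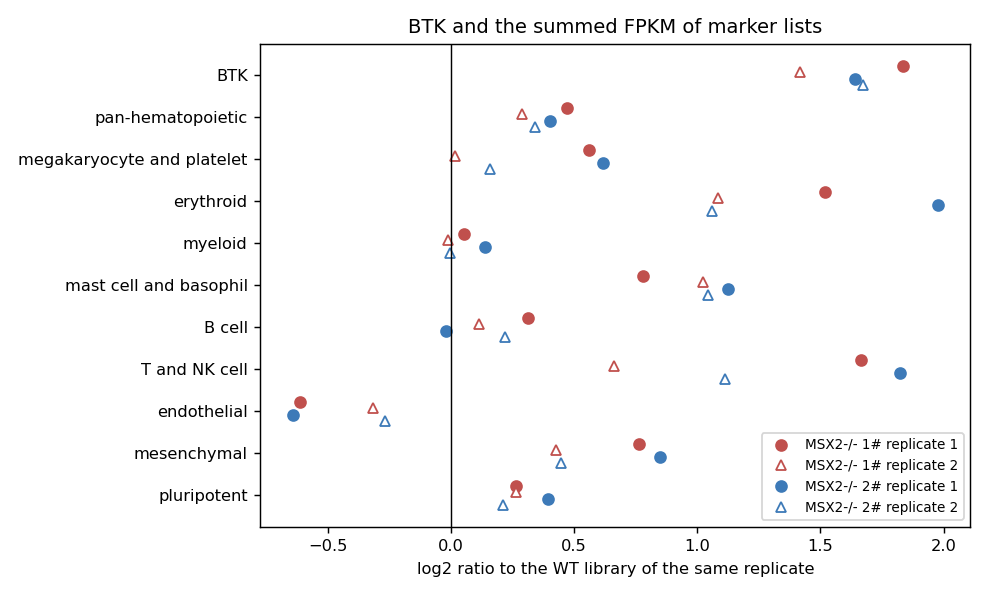
The horizontal axis gives the log2 ratio of each MSX2-/- library to the WT library of its replicate number, for the FPKM of BTK and for the summed FPKM of the 10 marker lists, with clones by colour and replicates by shape. BTK lies between 1.42 and 1.83, the erythroid sum between 1.06 and 1.98 and the endothelial sum between -0.64 and -0.27.

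Annotated protein-coding genes overlap 3 of the 10, and for 4 others (TEC, LYN, PLCG2 and INPP5D) the overlapping annotations are non-coding. BLNK overlaps ZNF518A on the opposite strand, LCP2 overlaps C5orf58 on the opposite strand, and GRAP2 holds the short protein-coding annotation Z82206.1 on its own strand. Whether reads were assigned by strand is not given in the sources used here. C5orf58 was at 0.547 FPKM or less in every library and ZNF518A between 2.52 and 4.0 FPKM.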

How the data were processed

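RNA-seq of day 8 cells was deposited as FPKM values in 1 table of 58364 rows by 6 libraries, with 342 symbols on several rows, for which the row with the highest mean was taken. The authors made the FPKM values. The series text names BWA, TopHat and Cufflinks, and the submitters' processing notes list BWA, Bowtie, RSEM and hg19, so the sources disagree. Versions, annotation, filters and strand are not given in the sources used here. No counts were used, and read depth is unknown.

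Groups came from the labels. The labels number the clones 7 and 10 and the columns 1 and 2. These could not be tied, and the column names were kept. MSX2-/- was compared with WT (4 libraries against 2) by limma 3.58.1 in R 4.3.3, with a mean-variance trend, on log2(FPKM + 1) of the 15895 rows with a mean of at least 0.5 FPKM. P-values were two-sided and Benjamini-Hochberg adjusted over all these rows, and an adjusted p under 0.05 was called. The scripts were tested on simulated data. Clones were compared in a fit of 3 groups, replicate numbers with WT and the clones as terms, and paralog ratios by exact permutation. Adding the replicate number as a replicate block left the BTK log2 fold change at 1.59 with adjusted p = 0.00153. The differences of replicate 2 from replicate 1 correlated across genes between WT and 1# (r = 0.508), WT and 2# (0.540) and 1# and 2# (0.636), so the numbers were taken as pairing the libraries. Genes are not independent replicates.

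The 10 genes, 7 lists of 86 other pathway genes and 10 marker lists were chosen with earlier results of these data known. The text names the 10, other pathway genes called without the block and the 6 highest and 6 lowest called with it, the 5 genes most like BTK, the paralogs, MSX2, PECAM1, CDH5, SPN, PTPRC, and each marker list's most abundant and defining genes (SPI1, CD3E, PF4, HDC and others that are not reported here). Marker genes called without the block, the markers at 0 and the genes overlapping a member were named after their values were seen. Gene positions are from GENCODE release 29 by symbol (97.0% of 56595 symbols found) and starts from RefSeq. Alternatives were another pseudocount, no filter, rescaling, no trend, summed rows, each clone alone and each library left out.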

Additional observations from a re-analysis of the deposited data

Results flagged for a closer look

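Among the 78 genes of these lists examined for a library far from the others, 2 stood out in the 4 MSX2-/- libraries by Dixon's ratio of the gap to the range, which chance carries past its 95% critical value in about 1 of 20 groups. TEC had a ratio of 0.879, with clone 2# replicate 2 at 2.22 FPKM and the others at 2.89 to 2.99 FPKM, still above both WT libraries. PIK3CB had a ratio of 0.865, with clone 2# replicate 2 at 16.1 FPKM and the others at 16.8 to 16.9 FPKM, above the WT libraries at 11.1 and 10.8 FPKM.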

How the results depend on the processing

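BTK kept its direction under all 16 alternatives, with log2 fold changes of 1.54 to 1.65, and was called in 11. It was not called in the fit of 3 groups (limma adjusted p = 0.0621), in clone 1# alone (0.193), in clone 2# alone (0.323), without the filter but with the replicate block (0.0569) and without WT replicate 1 (0.0670). The number of the 10 genes called higher was 1, and became 3 with the replicate block, 0 without the filter but with the block, 0 with 3 groups, 0 in clone 1# alone and 0 in clone 2# alone, and 0 to 1 with a library left out. Some of these settings called few rows of the whole table. The fit of 3 groups called 4 higher and 2 lower of 15895 rows. Clone 1# alone called 0 of 15903, and clone 2# alone 0 higher and 1 lower of 15784. Leaving out 1 MSX2-/- library gave 14 to 59 rows higher and 5 to 21 lower. Rescaled libraries gave 139 rows higher and 58 lower of 15891. Fitting no mean-variance trend gave 121 and 33 of 15895. Of the 58364 rows in the unfiltered fit, 38 were called higher, against 60 called lower. Adding the replicate block to that fit gave 72 and 81. For the fits that omit a WT library no such count is given, as they rest on a single WT library. The counts in the other settings, here and below, stand beside those of the whole table. Each clone called 0 of the 10 against WT and 1 with the replicate block. Replicate 2 against replicate 1 called 3 higher and 2 lower. Without the filter that comparison called 0 and 0, and no share of all rows is given here to set beside these.

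Of the other pathway genes, 1 was called higher and 0 lower. With the replicate block these were 13 and 2. Without the filter but with the block 3 were higher, and 0 were with 3 groups, rescaled libraries, no mean-variance trend, either clone alone or any library left out. Of the marker genes, 6 were called higher and 3 lower. The counts became 14 and 10 with the replicate block, 2 and 0 without the filter, 1 and 0 without the filter but with the block, and 0 and 0 with 3 groups or either clone alone. Without the mean-variance trend 1 was lower. With a library left out they were 1 to 4 higher and 0 to 1 lower.

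Leaving out WT replicate 1 turned the log2 fold changes of PLCG2 (to 0.060), VAV1 (to -0.16) and INPP5D (to 0.17), and the ratio of PLCG2 to PLCG1 (to 0.30). Over the fits that omit a library, the ranges were -1.03 to 0.060 for PLCG2, -0.16 to 0.79 for VAV1, -0.85 to 0.17 for INPP5D, -0.77 to 0.30 for PLCG2 to PLCG1 and -0.79 to 0.49 for VAV1 to VAV2. The ratio of VAV1 to VAV2 turned to 0.49 without WT replicate 2 and to 0.03 without clone 1# replicate 1, and that of LCP2 to BLNK to 0.79 with a pseudocount of 0.1. The causes were not tested. With 2 WT libraries, a value near either WT library cannot be told from the spread, and SYK and BLNK lay too low to be tested.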

Other observations

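Between replicate numbers, 16 of the 62 other pathway genes tested were called higher in replicate 2 (25.8%) and 8 lower (12.9%), beside 12.5% and 15.5% of all rows. The largest difference, named after its value was seen, was that of PIK3CD, the PI3K catalytic subunit of white blood cells. PIK3CD read 9.34 FPKM in WT, 6.23 FPKM in clone 1# and 8.44 FPKM in clone 2# in replicate 1, and 2.89, 1.06 and 0.791 FPKM in replicate 2 (log2 difference -1.87, limma adjusted p = 0.00588). It thus went with PLCG2 and INPP5D, which also were lower in replicate 2. ZAP70 (1.05), TLR4 (1.02) and FCER1G (0.95) were higher in replicate 2, as LYN and GRAP2 were. TLR4, also named after its value was seen, read 4.76, 3.81 and 3.40 FPKM in replicate 1 and 7.17, 9.76 and 10.5 FPKM in replicate 2. What separates the replicate numbers was not tested.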
